A study of Mus musculus with 21 samples.

Results

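The TAM receptors Mertk, Axl and Tyro3, their bridging ligands Gas6 and Pros1, and the efferocytosis genes Timd4, Mfge8, Elmo1 and Gulp1 were followed across sorted mouse brain macrophages. These 9 genes were chosen by name from the 57180 genes of the deposited count table, and each had 1 row. Efferocytosis is the uptake of dying cells. A phagocyte finds phosphatidylserine on the dying cell either directly, through receptors such as the one encoded by Timd4, or through soluble proteins that bind the lipid on one side and a receptor on the other. Gas6 and Pros1 (protein S) bridge to the TAM receptor kinases, and Mfge8 bridges to integrins. Elmo1 and Gulp1 act inside the phagocyte, where Elmo1 works with Dock1 to activate Rac and reshape the membrane. In the brain, microglia clear dying neurons and synaptic material, and Mertk and Axl are the TAM receptors best known from them.

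The RNA-seq libraries were made from cells sorted from brain, 21 in all. MLC denotes transplanted monocyte-derived microglia of genotype Osb-GFP, with 6 libraries after kainic acid seizure and 3 after saline. MG denotes transplanted microglia, also Osb-GFP, with 4 libraries after seizure and 3 after saline. NoTx denotes microglia of mice without a transplant, of genotype CX3CR1-CreER+/-; CSF1R fl/fl, with 3 libraries after seizure and 2 after saline. Kainic acid is a glutamate receptor agonist, and cells were taken 5 days after it. Against NoTx, transplantation and genotype cannot be told apart. Every seizure library was labelled batch 1 and every saline library batch 2, so that seizure and batch cannot be told apart. Age is not given in the labels. The labels call the libraries biological replicates. MLC seizure replicates 3 and 6 carry "11b" in their names beside the code of replicates 2 and 4, and may share animals with them.

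Total counts were 6.57 to 73.8 M per library after seizure and 36.5 to 50.3 M after saline, and 13074 to 17591 and 17893 to 21988 genes were detected. MLC seizure replicate 5 had the fewest genes. Levels are given as CPM, counts divided by the library total after TMM scaling between libraries. The summed level of 7 microglia markers was 16700 to 23500 CPM in MLC after seizure, against 43100 to 73000 CPM in MG and 45500 to 77100 CPM in NoTx. After saline the sums were 11200 to 23300 CPM in MLC, 49200 to 57700 CPM in MG and 51100 to 61600 CPM in NoTx. The sum of 10 markers of border and bone-marrow-derived macrophages was 3120 to 6880 CPM in MLC after seizure, with Lyve1 at 0 in all 6 libraries, against 6.23 to 66.9 CPM in MG and 13.4 to 58.1 CPM in NoTx. After saline it was 3390 to 4630 CPM in MLC, 14.9 to 41.6 CPM in MG and 200 to 306 CPM in NoTx. The 8 neutrophil markers summed to 59.5 to 1570 CPM in NoTx after saline and 6.01 to 649 CPM in NoTx after seizure. In MLC and MG they summed to at most 15.8 and 9.84 CPM. After saline, the blood monocyte markers Ly6c2, Ccr2, Plac8 and Chil3 averaged 41.15, 190.2, 48.2 and 262 CPM in NoTx. They averaged 0.0333, 2.36, 0.0757 and 0.293 CPM in MLC and 0.0881, 11.8, 0.489 and 0.465 CPM in MG. The dendritic cell markers Flt3, Xcr1 and Zbtb46 averaged at most 5.36 CPM in any of these groups. Xist was above 50 CPM in 0 of 9 MLC, 7 of 7 MG and 2 of 5 NoTx libraries, and the summed Y-linked transcripts were above 50 CPM in 9 of 9 MLC, 6 of 7 MG and 3 of 5 NoTx libraries. Both were above it in 6 of 7 MG libraries and in 0 of 9 MLC and 0 of 5 NoTx libraries. Xist status and cell origin cannot be told apart between MLC and MG. The part of these features in the results that follow was not tested. In bulk libraries, fewer expressing cells and less RNA per cell cannot be told apart.

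All 9 members passed the low-count filter, but 3 of them did so on very few libraries. The 6 groups were fitted together in edgeR, and p-values of its quasi-likelihood test were adjusted by the Benjamini-Hochberg method over the 18867 genes tested, with 0.05 as the limit. In MLC against MG after seizure, 1 member was higher and 3 were lower, 4 of 9, while 5.88% of all genes tested were called, 2.51% as higher and 3.37% as lower. Among the 6856 genes with a mean log2 CPM of at least 4 the share was 9.42%. In MLC against NoTx after seizure the same counts were found, 1 higher and 3 lower, with 6.16% of all genes called (2.55% higher, 3.61% lower) and 10.3% of the more abundant ones. After saline, 2 members were lower and 0 higher in MLC against MG, where 1.58% of genes were called (0.779% higher, 0.806% lower) and 3.11% of the more abundant ones. In MLC against NoTx after saline 1 member was higher and 1 lower, where 1.26% of genes were called (0.445% higher, 0.811% lower) and 2.68% of the more abundant ones. The MLC against MG and MLC against NoTx comparisons share the MLC libraries. The median log2 fold change of the 9 members in MLC against MG was -1.05 after seizure and -0.43 after saline, and that of all genes tested was 0 in both. These medians are the values of Mertk and of Gas6. They count Tyro3, Timd4 and Gulp1, which were at 0 in most libraries, and do not show a shift of the whole set.

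The promoters of the 4 members called in at least 1 comparison are shown because 3 of them were lower in MLC together while Axl was higher. Each is 300 bases, from 250 before to 50 after the start of the gene, from RefSeq on GRCm38.p6. All 9 members matched a promoter. Elmo1 has 2 entries, of which the upstream one is shown. Capitals mark the GC box GGGCGG on either strand and the PU.1-type ETS core GAGGAAGT, a motif of myeloid transcription factors.
Axl, chr7:25788684-25788983 (− strand): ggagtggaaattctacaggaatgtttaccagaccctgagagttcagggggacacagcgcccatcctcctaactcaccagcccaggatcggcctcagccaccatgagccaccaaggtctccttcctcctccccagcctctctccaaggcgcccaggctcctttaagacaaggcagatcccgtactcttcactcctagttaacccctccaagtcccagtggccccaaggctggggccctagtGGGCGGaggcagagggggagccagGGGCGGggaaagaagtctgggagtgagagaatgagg
Mertk, chr2:128698665-128698964 (+ strand): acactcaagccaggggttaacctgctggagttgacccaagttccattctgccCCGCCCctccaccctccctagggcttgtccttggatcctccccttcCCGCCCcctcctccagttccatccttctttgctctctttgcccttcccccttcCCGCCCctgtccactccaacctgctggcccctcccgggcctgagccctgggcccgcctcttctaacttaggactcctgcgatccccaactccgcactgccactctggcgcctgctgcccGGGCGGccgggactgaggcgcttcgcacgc
Pros1, chr16:62854057-62854356 (+ strand): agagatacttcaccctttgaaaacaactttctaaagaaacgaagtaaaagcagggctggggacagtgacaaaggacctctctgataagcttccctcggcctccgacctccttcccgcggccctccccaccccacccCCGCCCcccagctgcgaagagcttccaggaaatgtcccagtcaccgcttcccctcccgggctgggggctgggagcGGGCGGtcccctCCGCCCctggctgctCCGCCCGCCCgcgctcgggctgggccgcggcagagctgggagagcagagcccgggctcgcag
Elmo1, chr13:20090257-20090556 (+ strand): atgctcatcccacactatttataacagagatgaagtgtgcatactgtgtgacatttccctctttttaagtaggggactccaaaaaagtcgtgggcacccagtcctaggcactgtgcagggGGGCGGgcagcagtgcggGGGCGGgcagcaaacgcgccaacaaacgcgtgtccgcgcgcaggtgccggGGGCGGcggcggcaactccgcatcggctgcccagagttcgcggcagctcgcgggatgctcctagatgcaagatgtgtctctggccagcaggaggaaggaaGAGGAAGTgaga
The GC box occurred 2 times in the Axl promoter, 4 times in that of Mertk, 5 times in that of Pros1, with 2 of these overlapping, and 3 times in that of Elmo1, and 35.7% of all 32851 promoters held it. The ETS core was found once, in Elmo1, and 3.2% of promoters held it. An AP-1 element (TGANTCA, 7.81% of promoters), the interferon response element (3.44%), the LXR direct repeat (0.0152%) and an E-box (CACGTG, 7.15%) were searched on both strands, and none of these motifs was in the 4 windows. The GC content was 60.3% for Axl, 66% for Mertk, 66.7% for Pros1 and 60% for Elmo1, and the median of all promoters was 52.7%. The second Elmo1 entry, which is not shown, had a GC content of 46%, with no GC box and no ETS core. Which of the Elmo1 starts these cells use was not tested.

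Axl was higher in MLC. Axl is a TAM receptor that binds Gas6 and is known to be induced in inflamed macrophages. In the 6 MLC libraries after seizure it ran from 178.9 to 365.8 CPM with a median of 259.3 CPM. The 4 MG libraries after seizure had 57.2, 1.37, 44.9 and 9.72 CPM, and the 3 NoTx libraries had 0.484, 7.76 and 8.18 CPM. Every MLC library was above every MG and NoTx library, and the MG libraries differed widely among themselves. The group means after seizure were 263 ± 63.0 CPM in MLC, 28.3 ± 27 CPM in MG and 5.47 ± 4.33 CPM in NoTx (SD, n = 6, 4 and 3). Axl was 9.29-fold higher in MLC than in MG (log2 fold change 3.22, SE 0.86, edgeR adjusted p = 0.0271). It was 47.6-fold higher in MLC than in NoTx (5.57, SE 1.11, edgeR adjusted p = 0.0029). Groups without overlap were found for 5.41% of all genes in MLC against MG after seizure and for 9.22% in MLC against NoTx.

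After saline, Axl stood at 333.5, 258.5 and 1242 CPM in MLC, at 29.1, 15.5 and 101.6 CPM in MG and at 12.1 and 1.99 CPM in NoTx. The MLC libraries were again above all others, and MLC saline replicate 3 was far above the other two. The fold of Axl in MLC over MG was 12.5 and did not pass (log2 fold change 3.65, SE 1.05, edgeR adjusted p = 0.0976), while DESeq2 gave an adjusted p of 0.00647 and limma-voom 5.11e-05. Against NoTx it was 86.9-fold higher (6.44, SE 1.44, edgeR adjusted p = 0.0225). Groups that do not overlap were common with so few libraries, at 22.8% of genes in MLC against MG and 33.3% in MLC against NoTx. The higher level in MLC than in MG after seizure lost its call without MG seizure replicate 3 (edgeR adjusted p = 0.0504), without MG seizure replicate 4 (0.0731) and when each 11b library was summed with the library of its code (0.0524), with log2 fold changes of 3.54, 2.93 and 3.25. It also missed in limma-voom (0.0871), without the low-count filter (0.0901) and without the 3 libraries of fewest genes (0.166). Against NoTx after seizure the call was missed in limma-voom only (0.1), of 19 alternatives. Against NoTx after saline the call was lost without MLC saline replicate 3 (0.0683), NoTx saline replicate 1 (0.106) or NoTx saline replicate 2 (0.408), and the log2 fold change stayed between 5.42 and 8.26.

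Mertk was lower in MLC. Mertk is the TAM kinase through which macrophages, microglia included, take up dying cells bound to Gas6 or protein S. After seizure the 6 MLC libraries ran from 101.1 to 283 CPM with a median of 164.2 CPM, the MG libraries had 311, 286.1, 443.9 and 442 CPM, and the NoTx libraries had 417.5, 409.6 and 411.1 CPM. The highest MLC library, replicate 5, was just under the lowest MG library, in a comparison where 5.41% of all genes had no overlap. Mertk was 2.07-fold lower in MLC than in MG (log2 fold change -1.05, SE 0.25, edgeR adjusted p = 0.0119) and 2.31-fold lower than in NoTx (-1.21, SE 0.27, edgeR adjusted p = 0.00715). The first call was lost when the 11b libraries were left out (0.0661) or summed (0.0565), under RLE scaling (0.0596), when only these 2 groups were fitted (0.128) and without the 3 libraries of fewest genes (0.11). The second was lost in 1 of 19 alternatives, when the 2 groups were fitted alone (0.0715). Mertk is also made by astrocytes. The 8 astrocyte markers summed to 7 to 146 CPM in MLC and 337 to 569 CPM in MG after seizure. The MG sum was mostly Slc1a3, which averaged 11.2 CPM in MLC and 436.8 CPM in MG. The other 7 markers had positive log2 fold changes of MLC over MG, and 0 were called higher. Gfap, for example, averaged 4.49 CPM in MLC and 3.35 CPM in MG. The part of astrocyte RNA in the Mertk level was not tested.

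After saline, Mertk had 115.5, 135.2 and 154.3 CPM in MLC, 327.5, 256.6 and 389.4 CPM in MG and 334.1 and 246.6 CPM in NoTx. The MLC libraries were below all libraries of both other cell types. Of all genes, 22.8% had no overlap in MLC against MG and 33.3% in MLC against NoTx. Mertk was 2.4-fold lower in MLC than in MG (-1.27, SE 0.32, edgeR adjusted p = 0.0474), a call lost without MG saline replicate 1 (0.125), MG saline replicate 3 (0.207) or any single MLC saline replicate (0.212, 0.17 and 0.0806 without replicate 1, 2 and 3). It held in 6 of 15 alternatives. Against NoTx the difference of -1.11 (SE 0.35) did not pass (edgeR adjusted p = 0.19), but it passed in limma-voom (0.00377) and without the 3 libraries of fewest genes (0.0466). In all 4 comparisons the Mertk level in MLC was thus lower by 2.07-fold to 2.4-fold, and 3 of the 4 passed in edgeR.

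**Figure D1:**
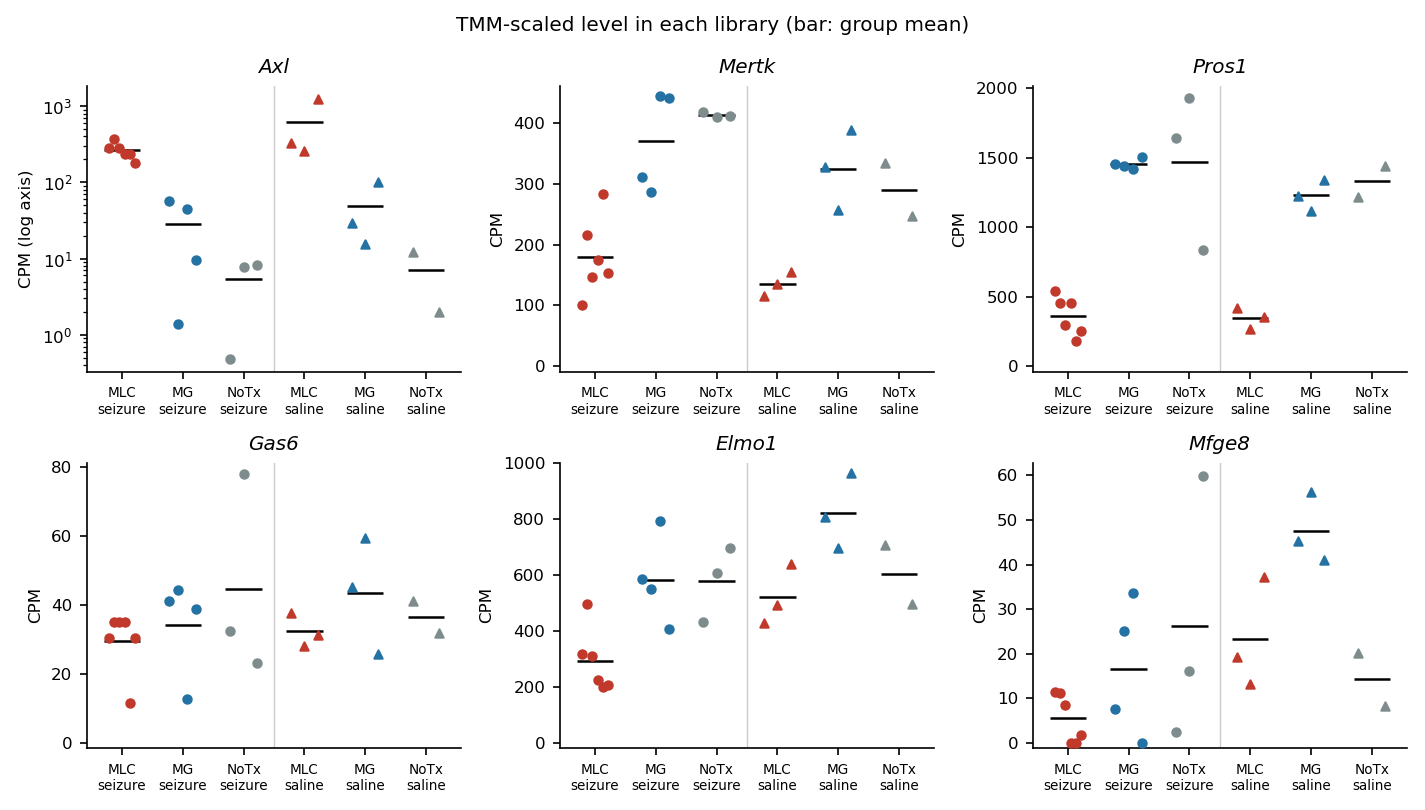
TMM-scaled level (CPM) of the 6 members that were read in most libraries, with 1 point per library (circles after seizure, triangles after saline), a bar for the group mean, and a log axis for Axl only. All MLC libraries lie above all others for Axl, at 178.9 CPM or more, and below all others for Pros1, at 537.8 CPM or less.

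Tyro3, the TAM receptor best known from neurons, was near the limit of detection. It was at 0 in 13 of 21 libraries and reached 10 counts in 3, with 235 counts in NoTx seizure replicate 2, 32 in MLC saline replicate 3 and 30 in MLC seizure replicate 6. A count of 0 allows up to 3 counts in a library, 0.0456 to 0.417 CPM depending on depth, for counting error only. No difference of Tyro3 between cell types was detectable in edgeR.

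Levels of different genes were compared per kilobase of exon. After seizure, Axl averaged 52.3 CPM per kb in MLC, 5.62 in MG and 1.09 in NoTx, while Mertk averaged 41.3, 85.5 and 95.2 CPM per kb in the same groups. The ratio of the Axl level to the Mertk level was 0.724 to 2.39 in the 6 MLC libraries after seizure, 0.00413 to 0.158 in MG and 0.000998 to 0.0171 in NoTx. After saline this ratio was 1.65 to 6.93 in MLC, 0.0521 to 0.225 in MG and 0.00696 and 0.0311 in NoTx. The lowest ratio of any MLC library was thus above the highest of any MG or NoTx library. The ratio is built from the Axl and Mertk levels given above, so this is no separate result. The share of gene pairs without overlap was not computed.

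**Figure D2:**
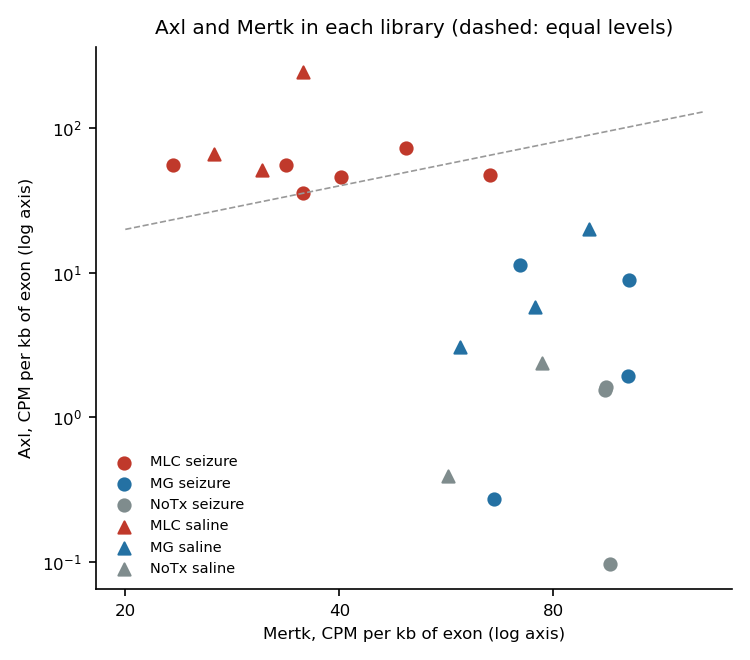
Axl against Mertk level in each library, in CPM per kb of exon on log axes, with the dashed line at equal levels. The MLC libraries, with ratios of 0.724 to 6.93, lie apart from the MG and NoTx libraries, with ratios of 0.225 or less.

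Pros1 was lower in MLC in all 4 comparisons. It encodes protein S, a plasma anticoagulant that microglia and other macrophages also make and that bridges phosphatidylserine to Mertk and Tyro3. After seizure the MLC libraries ran from 183.5 to 537.8 CPM with a median of 374.2 CPM. The MG libraries had 1452, 1442, 1418 and 1505 CPM, and the NoTx libraries had 1643, 1927 and 833.3 CPM. All MLC libraries were below all others. Of all genes, 5.41% had no overlap in MLC against MG and 9.22% in MLC against NoTx. Pros1 was 4-fold lower in MLC than in MG (log2 fold change -2.0, SE 0.27, edgeR adjusted p = 3.4e-05) and 4.04-fold lower than in NoTx (-2.02, SE 0.29, edgeR adjusted p = 7.18e-05). Both calls held in all alternatives run, 20 against MG with an adjusted p of at most 0.00249 and 19 against NoTx with at most 0.00986.

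After saline, Pros1 had 416.3, 269.3 and 352.4 CPM in MLC, 1227, 1118 and 1338 CPM in MG and 1216 and 1441 CPM in NoTx. The MLC libraries were again below all others, and MG and NoTx overlapped. Of all genes, 22.8% had no overlap in MLC against MG and 33.3% in MLC against NoTx. Pros1 was 3.55-fold lower in MLC than in MG (-1.83, SE 0.36, edgeR adjusted p = 0.00497) and 3.84-fold lower than in NoTx (-1.94, SE 0.38, edgeR adjusted p = 0.00769). The call was lost without MLC saline replicate 2, with adjusted p of 0.0637 against MG and 0.0743 against NoTx, and against NoTx without NoTx saline replicate 2 (0.116).

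Gas6, the ligand of all TAM receptors, did not pass in any comparison. After seizure it averaged 29.6 ± 9.16 CPM in MLC, 34.3 ± 14.5 CPM in MG and 44.6 ± 29.4 CPM in NoTx (SD, n = 6, 4 and 3). After saline the means were 32.3 ± 4.92 CPM in MLC, 43.5 ± 17 CPM in MG and 36.5 ± 6.46 CPM in NoTx (SD, n = 3, 3 and 2). The groups overlapped at both times. The log2 fold change of MLC over MG was -0.21 (SE 0.43, edgeR adjusted p = 0.837) after seizure and -0.43 (SE 0.54, edgeR adjusted p = 1) after saline. Over NoTx it was -0.59 (SE 0.46, edgeR adjusted p = 0.464) after seizure and -0.18 (SE 0.60, edgeR adjusted p = 1) after saline. An exon of Gas6 overlaps one of Tmem255b on the other strand, and the sources used here do not say whether counting used strand. Per kilobase, Pros1 stood 5.2 to 11.1 times above Gas6 in MLC after seizure, 20.3 to 69.4 times in MG and 15.4 to 31.5 times in NoTx. After saline these ratios were 5.97 to 7.04 in MLC, 11.7 to 32.4 in MG and 18.4 to 28.1 in NoTx.

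Mfge8, the bridge to the vitronectin receptor integrins, was low and uneven. After seizure the MLC libraries ran from 0 to 11.4 CPM with a median of 5.11 CPM and with 2 of 6 libraries at 0. The MG libraries had 7.56, 25, 33.7 and 0 CPM, and the NoTx libraries had 2.42, 16.2 and 59.9 CPM. After saline, Mfge8 had 19.3, 13.2 and 37.1 CPM in MLC, 45.4, 56.3 and 41 CPM in MG and 20.2 and 8.35 CPM in NoTx. The MLC and MG libraries overlapped after seizure and not after saline, where 22.8% of all genes had no overlap. The log2 fold change of MLC over MG was -1.60 (SE 1.2, edgeR adjusted p = 0.449) after seizure and -1.04 (SE 1.54, edgeR adjusted p = 1) after saline. Over NoTx it was -2.26 (SE 1.28, edgeR adjusted p = 0.277) after seizure and 0.70 (SE 1.74, edgeR adjusted p = 1) after saline.

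Elmo1 was lower in MLC after seizure. The 6 MLC libraries ran from 200.7 to 495.8 CPM with a median of 267.4 CPM, the MG libraries had 585.1, 550.3, 792.6 and 406.6 CPM, and the NoTx libraries had 432.3, 607.2 and 697.6 CPM. Here MLC seizure replicate 2 was above the lowest MG and the lowest NoTx library, so the groups overlapped. Elmo1 was 2-fold lower in MLC than in MG (log2 fold change -1.0, SE 0.26, edgeR adjusted p = 0.0252) and 1.98-fold lower than in NoTx (-0.99, SE 0.28, edgeR adjusted p = 0.0404). The first call held in 11 of 20 alternatives and the second in 6 of 19. The first was lost without MG seizure replicate 3 (0.112) or MLC seizure replicate 4, 5 or 6 (0.0689, 0.0627 and 0.0712). The second was lost without MLC seizure replicate 1, 3, 4, 5 or 6 (0.0563, 0.0555, 0.0797, 0.086 and 0.0819) and without NoTx seizure replicate 2 or 3 (0.121 and 0.176). An antisense gene, Gm32036, overlaps an exon of Elmo1.

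After saline, Elmo1 had 428.6, 491.3 and 640.6 CPM in MLC, 805.4, 697.9 and 963.9 CPM in MG and 708 and 497.2 CPM in NoTx. The MLC libraries were below all MG libraries, in a comparison where 22.8% of all genes had no overlap, and overlapped those of NoTx. The log2 fold change was -0.66 over MG (SE 0.34, edgeR adjusted p = 0.685), called in limma-voom (adjusted p = 0.0281), and -0.21 over NoTx (SE 0.37, edgeR adjusted p = 1).

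Timd4, which encodes the phosphatidylserine receptor TIM-4 of resident tissue macrophages, was at 0 in 15 libraries. It reached 10 counts in 2, with 64 in MG seizure replicate 1 and 31 in NoTx saline replicate 2. Gulp1, an adaptor of engulfment receptors, was at 0 in 18 libraries and reached 10 counts only in MLC saline replicates 1 (111 counts) and 3 (38 counts), while MLC saline replicate 2 was at 0. In edgeR neither passed in any comparison. Limma-voom called Gulp1 in MLC against MG (adjusted p = 0.018) and against NoTx (0.046) after saline. Gulp1 passed the low-count filter only through MLC saline replicates 1 and 3, the group these calls put higher. The calls are therefore no support for a difference.

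**Figure D3:**
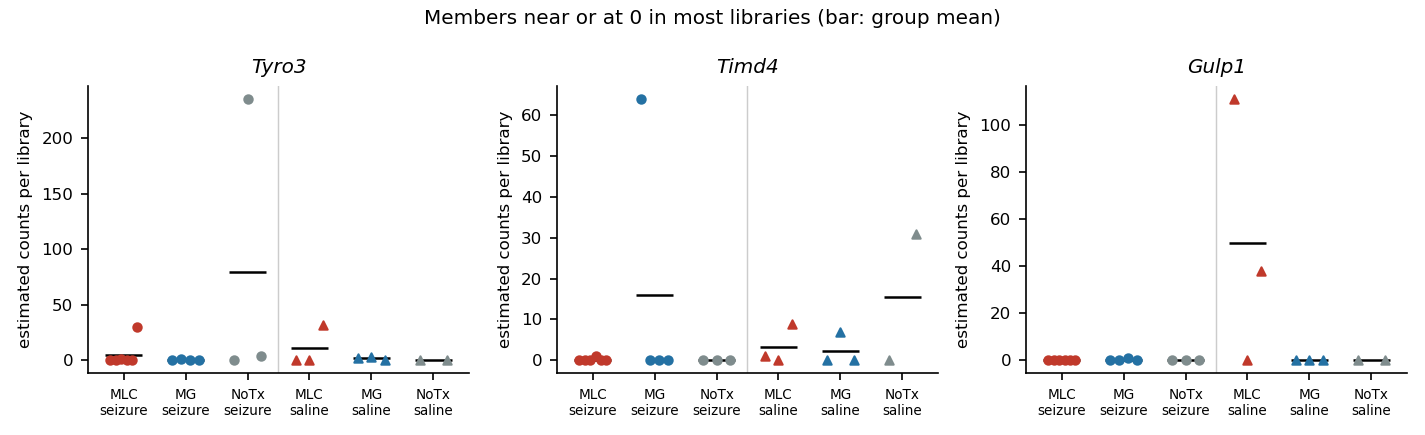
Estimated counts of Tyro3, Timd4 and Gulp1 in each library, with 1 point per library (circles after seizure, triangles after saline) and a bar for the group mean. Single libraries hold most counts, such as 235 counts of Tyro3 in NoTx seizure replicate 2, and most libraries are at 0.

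**Figure D4:**
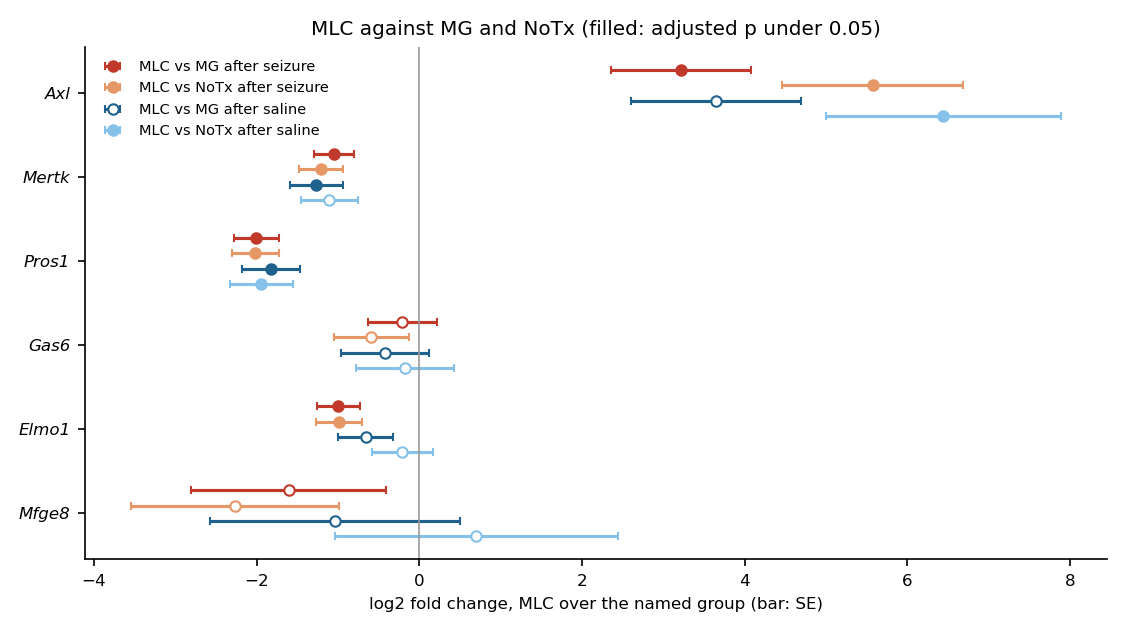
Log2 fold change of MLC over MG or NoTx for the 6 members read in most libraries, with the SE as a bar and filled points where the edgeR adjusted p was under 0.05. Axl lies above 0 by 3.22 to 6.44 in all 4 comparisons, and Pros1 lies below 0 by -1.83 to -2.02 with all 4 filled.

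Between MG and NoTx no member passed in edgeR after seizure (0 of 9; 2 at an unadjusted p under 0.05) or after saline (0 of 9; 1 unadjusted), and DESeq2 and limma-voom also called 0. Over all genes, edgeR called 0.0742% after seizure (14 genes, against 627 in DESeq2 and 24 in limma-voom) and 0.053% after saline (10, against 104 and 439), with 11.1% and 3.4% at an unadjusted p under 0.05. Pros1 averaged 1454 ± 36.5 CPM in MG and 1468 ± 567.8 CPM in NoTx after seizure, and 1228 ± 110 CPM in MG and 1329 ± 159 CPM in NoTx after saline. Mertk averaged 371 ± 84.0 CPM in MG and 413 ± 4.19 CPM in NoTx after seizure, and 324.5 ± 66.4 CPM in MG and 290.3 ± 61.9 CPM in NoTx after saline. Axl gave the largest estimate of the 6 members read in most libraries, a log2 fold change of 2.36 (SE 0.96, edgeR adjusted p = 0.391) after seizure, with overlapping groups, and of 2.79 (SE 1.19, edgeR adjusted p = 1) after saline, where the 3 MG libraries were above both NoTx libraries. There 36.8% of genes had no overlap.

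After seizure against saline, 0 of 9 members passed in edgeR in MLC (2 at an unadjusted p under 0.05), in MG (0 unadjusted) and in NoTx (2 unadjusted), and DESeq2 and limma-voom called 0 members as well. Of all genes, 0% passed in edgeR in MLC, 0.0371% in MG and 0.106% in NoTx, and 11.9%, 11.8% and 7.35% had an unadjusted p under 0.05. In MLC, DESeq2 called 130 genes in all and limma-voom 103, against 0 in edgeR. In MG they called 274 and 260, against 7 in edgeR, and in NoTx 218 and 90, against 20. Elmo1 averaged 292 ± 112 CPM in MLC after seizure and 520.2 ± 109 CPM in MLC after saline, a log2 fold change of -0.83 (SE 0.28, edgeR adjusted p = 0.327). In MG it averaged 584 ± 159 CPM after seizure and 822 ± 134 CPM after saline (-0.49, SE 0.31, edgeR adjusted p = 0.549). Mfge8 averaged 5.47 ± 5.47 CPM in MLC after seizure and 23.2 ± 12.4 CPM after saline, and 16.6 ± 15.5 CPM in MG after seizure and 47.6 ± 7.86 CPM after saline. The seizure and saline libraries of Mfge8 did not overlap within MLC or within MG. The log2 fold changes of -2.09 (SE 1.28) and -1.52 (SE 1.42) did not pass (edgeR adjusted p = 0.568 and 0.728). Pros1 in MG and Mertk in NoTx also had no overlap, both higher after seizure (0.24, SE 0.32, and 0.51, SE 0.36). Neither passed (edgeR adjusted p = 0.829 and 0.931). Of all genes, 6.28% in MLC and 16% in MG had no overlap. The share in NoTx is not given here. Axl averaged 263 ± 63.0 CPM in MLC after seizure and 611 ± 547 CPM after saline (-1.22, SE 0.79, edgeR adjusted p = 0.606), and this difference came mostly from MLC saline replicate 3: without it the log2 fold change was -0.16.

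Whether the difference between MLC and MG itself changed after seizure was tested as an interaction. In edgeR 0 of 9 members passed (1 at an unadjusted p under 0.05, Gulp1), as did 0% of all genes, of which 5.49% had an unadjusted p under 0.05. DESeq2 and limma-voom also called 0 members, with 143 and 8 genes called in all. The difference of the log2 fold changes, seizure minus saline, was -0.43 (SE 1.2) for Axl, 0.21 (SE 0.41) for Mertk and -0.17 (SE 0.44) for Pros1, each with an edgeR adjusted p of 1.

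Across the 21 libraries, which share their groups, log2 CPM of Mertk and Pros1 had a Pearson r of 0.741, Axl and Pros1 of -0.78, Axl and Mertk of -0.675, and Elmo1 and Mfge8 of 0.768. Among the 6856 more abundant genes, the pattern most like that of Axl was of Nrp1 (r = 0.919), Slc38a6 (0.896) and H2-K1 (0.879). The genes most like Mertk were Epb41l2 (0.926), Snn (0.885) and Clgn (0.881). Those most like Pros1 were Tspan7 (0.961), Gm3739 (0.957) and Serpine2 (0.957), and those most like Elmo1 were Entpd1 (0.958), Slc25a45 (0.954) and Cyb561a3 (0.951). These values are descriptions of 21 libraries in 6 groups.

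Other genes of the pathway were read from 5 lists. Of 15 tested efferocytosis receptors and bridging molecules, 2 were higher and 2 lower in MLC than in MG after seizure, with a median log2 fold change of -0.74, and 1 was higher and 1 lower after saline, with a median of -0.35. Itgb3, the integrin chain that pairs with alpha v to bind Mfge8, fell in MLC to 0 to 0.207 CPM after seizure, against 4.96 to 35.6 CPM in MG (log2 fold change -7.82, SE 0.89, edgeR adjusted p = 3.09e-06). After saline it stood at 0.0809 to 0.735 CPM in MLC and 30.8 to 56.5 CPM in MG (-7.08, SE 1.14, edgeR adjusted p = 0.000613). Cd36, a scavenger receptor for oxidised lipid and thrombospondin, was at 205.5 to 635 CPM in MLC after seizure and 0.35 to 32.3 CPM in MG (4.93, SE 0.90, edgeR adjusted p = 0.00119). After saline Cd36 was at 287.6 to 362.5 CPM in MLC and 3.3 to 10.4 CPM in MG (5.56, SE 1.10, edgeR adjusted p = 0.00532), a call lost without MG saline replicate 3 (0.0555) and without the low-count filter (0.061). Trem2, a lipid receptor of microglia, averaged 1162 ± 288 CPM in MLC and 2413 ± 469 CPM in MG after seizure (-1.05, SE 0.23, edgeR adjusted p = 0.00573), a call lost with only the groups compared (0.0852) and without the 3 libraries of fewest genes (0.154). Cd300lf, a phosphatidylserine and ceramide receptor, averaged 77.7 ± 54.0 CPM in MLC and 3.99 ± 4.93 CPM in MG after seizure (4.32, SE 1.04, edgeR adjusted p = 0.0137), a call lost without the low-count filter (0.0562). Neither Trem2 nor Cd300lf passed after saline.

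Of 14 genes of the engulfment machinery, the partners of Elmo1 among them, 2 were higher and 0 lower in MLC than in MG after seizure (median -0.36). After saline 0 passed in either direction (median -0.29). Over all genes, 5.88% were called after seizure and 1.58% after saline. Abca1, a lipid exporter, averaged 757.5 ± 408.5 CPM in MLC and 291 ± 61.0 CPM in MG after seizure (1.38, SE 0.30, edgeR adjusted p = 0.00599). Vav3 was at 0 to 7.41 CPM in MLC and at 0 in all 4 MG libraries (edgeR adjusted p = 0.0263, lost without MG seizure replicate 1, 3 or 4, at 0.05, 0.0727 and 0.0589). It averaged only 2.41 CPM in MLC after seizure. Being at 0 in MG, it passed the low-count filter through libraries of other groups, MLC among them, so its call is weak support. Of 15 genes of phagosome maturation and digestion, 1 was higher and 1 lower in both comparisons, with medians of -0.06 after seizure and -0.08 after saline. Cybb, which encodes the NADPH oxidase core of phagocytes, was at 1993 to 4961 CPM in MLC and 12.2 to 34.7 CPM in MG after seizure (7.06, SE 0.48, edgeR adjusted p = 2.48e-09). After saline it was at 1923 to 2373 CPM in MLC and 13.4 to 34.9 CPM in MG (6.41, SE 0.55, edgeR adjusted p = 1.74e-07). Ctsl, a lysosomal protease, averaged 138 ± 23.7 CPM in MLC and 547 ± 188 CPM in MG after seizure (-1.98, SE 0.25, edgeR adjusted p = 9.85e-06), and 167 ± 23.4 CPM in MLC and 822 ± 257 CPM in MG after saline (-2.30, SE 0.33, edgeR adjusted p = 0.000147).

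Of 11 tested regulators of TAM signalling, such as the shedding protease gene Adam17 and the lipid sensor gene Nr1h3, 0 passed in edgeR in MLC against MG, with medians of -0.21 after seizure and -0.38 after saline. Of 7 receptors and ligands that restrain engulfment, 2 were higher and 2 lower in MLC than in MG after seizure (median -0.06). After saline 1 was higher and 0 lower (median 0.56). Over all genes, 5.88% were called after seizure and 1.58% after saline. Lilrb4a, an inhibitory receptor, was at 420.3 to 945.8 CPM in MLC and 3.93 to 20.1 CPM in MG after seizure (6.12, SE 0.53, edgeR adjusted p = 4.87e-08). After saline it was at 885.4 to 1325 CPM in MLC and 10.4 to 14.5 CPM in MG (6.46, SE 0.63, edgeR adjusted p = 7.13e-07). Sirpa, the receptor of the CD47 signal, averaged 330 ± 93.4 CPM in MLC and 770 ± 159 CPM in MG after seizure (-1.22, SE 0.28, edgeR adjusted p = 0.0093), a call lost when the 11b libraries were left out (0.0627). Pecam1, an adhesion molecule that signals detachment between living cells and also marks endothelium, was at 0.135 to 0.863 CPM in MLC and 3.21 to 62.3 CPM in MG (-5.67, SE 0.88, edgeR adjusted p = 0.000185). The 8 endothelial and mural markers, Pecam1 among them, summed to 1.21 to 6.56 CPM in MLC and 4.35 to 62.4 CPM in MG after seizure, and 4 of the 8, Cldn5, Pdgfrb, Rgs5 and Acta2, were at 0 in all MG libraries. In MG the sum was mostly Pecam1 itself, which averaged 22.8 CPM, so the sum says little about endothelial RNA. Of the remaining markers, Flt1 averaged 2.49 CPM in MLC and 0.246 CPM in MG. Kdr averaged 0.187 CPM in MLC and 2.53 CPM in MG, and Cdh5 0.283 and 1.35 CPM. The part of endothelial RNA in the Pecam1 level was not tested. Siglec1, a sialic acid lectin, was at 0.0589 to 6.06 CPM in MLC and 0 to 0.0318 CPM in MG (edgeR adjusted p = 0.0186, lost without MG seizure replicate 3 at 0.0596). It averaged only 2.68 CPM in MLC after seizure. Near 0 in MG after seizure, it passed the low-count filter through libraries of other groups, MLC among them, so its call is weak support.

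**Figure D5:**
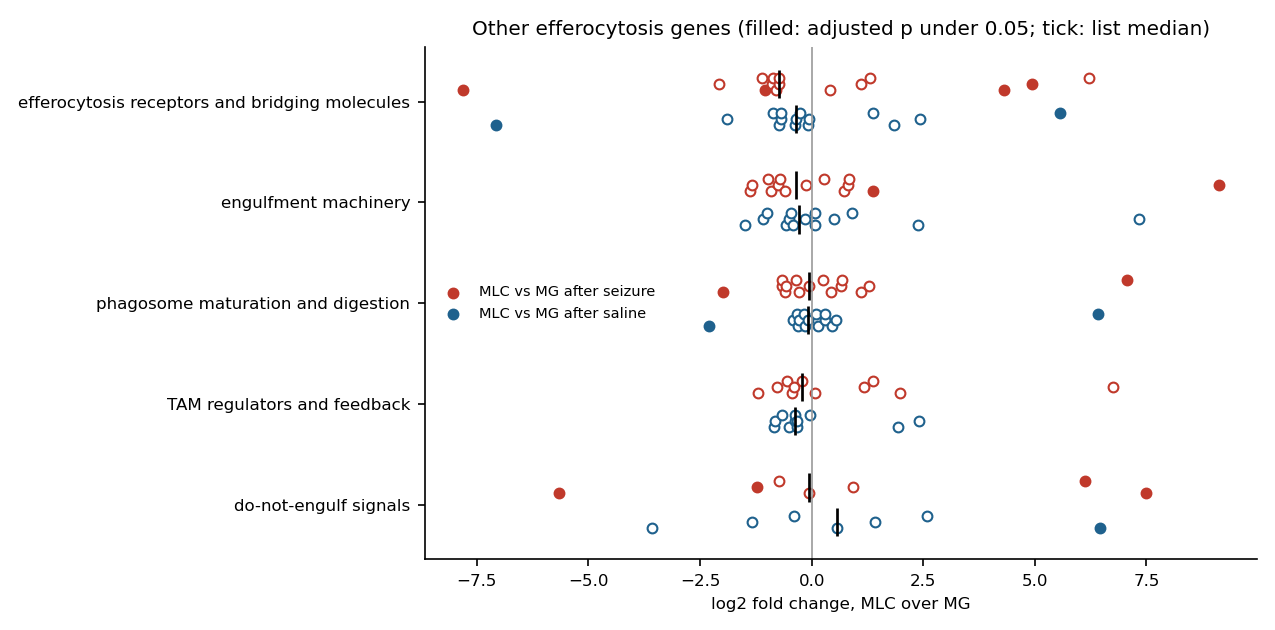
Log2 fold change of MLC over MG for each gene tested of the 5 pathway lists, red after seizure and blue after saline, with filled points where the edgeR adjusted p was under 0.05 and a tick at the list median. Single genes such as Itgb3 (-7.82 after seizure) and Cybb (7.06) lie far from 0, while the medians run from -0.74 to 0.56.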

How the data were processed

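RNA was taken from sorted brain cells with a column kit and libraries were made with a low-input kit, per the labels' protocols. The authors deposited 1 table of estimated counts per gene. Of the values above 0, 28.2% to 45.4% per library were not whole. Per the submitters' processing notes, the tools were Trim Galore 0.6.7, cutadapt 3.4, STAR 2.7.10a, featureCounts (Subread 2.4.5) and DESeq2 1.36.0, with build GRCm39. How fractional counts arose is not stated there.

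Counts were rounded to whole numbers. Of 57180 genes, 46.7% were at 0 in all libraries and 18867 passed filterByExpr by group. A single edgeR 4.0.16 quasi-likelihood fit (TMM, robust, 6 group means, R 4.3.3) gave 10 comparisons. The SE is the absolute log2 fold change over the square root of F. CPM are TMM-scaled, log2 CPM use a prior count of 2, and exon lengths come from GENCODE on GRCm38. Libraries were PCR-amplified and no molecular identifiers are named, so count limits cover counting error only. Alternatives were DESeq2 1.42.0, limma-voom 3.58.1 with quality weights, no low-count filter, RLE scaling, only the groups compared, a replicate block, the 11b libraries left out or summed, the 3 libraries of fewest genes (MG seizure replicates 3 and 4 and MLC seizure replicate 5) left out, and each library left out. The pipeline was also run on simulated counts with changes set in MLC, and the outcome is not given here. The simulated libraries were drawn independently and without a batch difference, so shared animals and batch were not covered.

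The members and lists were chosen with earlier results of these data known. All members were named, as were up to 4 called genes per pathway list with the smallest adjusted p in MLC against MG, and the 3 genes most like each called member. Of 41 same-numbered pairs of libraries, 5 had a correlation of deviations above 0.1. Of 14 pairs with the same code in the seizure library names, 2 were above 0.1. They were MLC with MG of code M1 (0.132) and of code M2 (0.159). Pairs of unlike numbers or codes were not compared, so this check cannot decide whether the libraries are paired. A block by these codes on the seizure libraries was added after seeing the data. P-values set a difference between groups against the spread between libraries. Some MLC seizure libraries may share animals, so this spread need not be the spread between animals.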

Additional observations from a re-analysis of the deposited data

Results flagged for a closer look

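Within groups of 4 to 6 libraries, 6 levels stood apart from the rest by the gap to the nearest library against the range of the group. For normally distributed values, chance alone gives about 1 in 20 groups, and 17 groups had a range. A library that alone is above 0 is always flagged, so the 6 flags cannot be set against this rate. Gas6 was lowest at 11.5 CPM in MLC seizure replicate 5, the library with the fewest genes detected. The other 5 were single libraries with counts of genes that were at or near 0 elsewhere in the group. They were Tyro3 at 0.125 CPM in MG seizure replicate 2 and at 1.77 CPM in MLC seizure replicate 6, Timd4 at 6.29 CPM in MG seizure replicate 1 and at 0.0863 CPM in MLC seizure replicate 4, and Gulp1 at 0.0265 CPM in MG seizure replicate 3. The Gulp1 value, the Timd4 value of MLC and the Tyro3 value of MG rest on 1 count each.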

How the results depend on the processing

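In MLC against MG after seizure, 4 members passed. The count was 2 with the 11b libraries left out or summed, with only the groups compared or under RLE scaling. It was 3 in limma-voom, without the low-count filter and with the replicate block. It was 1 without the 3 libraries of fewest genes, and 2 to 4 with single libraries left out. After saline, 2 passed against MG. The count was 1 with the 11b libraries left out or summed, without the low-count filter or under RLE scaling. It was 3 in DESeq2, 5 in limma-voom, and 0 to 2 with single libraries left out. Against NoTx after saline, 2 passed. The count was 4 in limma-voom, 3 without the 3 libraries of fewest genes and 1 without the low-count filter. With single libraries left out it was 0 to 2. The limma-voom counts after saline against MG and NoTx both include Gulp1. Against NoTx after seizure, 4 passed, but 2 with only the groups compared. The count was 3 in limma-voom, under RLE scaling and with the replicate block. It was also 3 with the 11b libraries left out and without the 3 libraries of fewest genes. Leaving out single libraries gave 3 or 4, in most cases 3. The causes were not tested. With the replicate block, Elmo1 lost its call in MLC against MG (adjusted p = 0.062) and NoTx (0.212) after seizure; no other member call changed, and of the other pathway genes Vav3 (0.108) and Sirpa (0.0522) lost theirs. Whether libraries of the same number belong together is not stated. With the library codes as a block on the seizure libraries, an alternative chosen after seeing the data, 4 members passed against MG, 3 against NoTx (Elmo1 lost, 0.129) and 0 in MG against NoTx, Vav3 (0.121) and Siglec1 (0.114) lost their calls, and 636 genes were called in MLC against MG and 539 against NoTx. Under RLE scaling the median over all genes shifted on the log2 scale by 0.119 in MLC against MG after seizure and by 0.129 against NoTx, and the calls of MLC against MG to 545 higher and 477 lower, against 474 and 635. Over all genes, edgeR called 1109 genes in MLC against MG after seizure and 299 after saline, DESeq2 2447 and 660, and limma-voom 1064 and 1698. Against NoTx edgeR called 1162 and 237, DESeq2 2748 and 661, and limma-voom 1334 and 1551. No call of a member changed direction in any alternative. Differences that did not pass changed sign as follows. The interaction of Axl was 0.35 in limma-voom, 0.18 with the replicate block and -1.53 to 0.62 with single libraries left out. That of Pros1 was 0.023 with the 11b libraries left out, 0.068 without the 3 libraries of fewest genes, 0.073 with the replicate block and -0.32 to 0.04 with single libraries left out. Gas6 in MLC was 0.124 over MG after seizure and 0.094 over NoTx after saline with the replicate block. With single libraries left out it was -0.48 to 0.057 over MG after seizure, -0.35 to 0.016 over NoTx after saline and -0.90 to 0.093 over NoTx after seizure, and Elmo1 was -0.45 to 0.064 over NoTx after saline. Of the other pathway genes, calls after seizure were lost without the 3 libraries of fewest genes for Trem2, Sirpa, Siglec1 and Vav3. Depth limits statements on Tyro3, Timd4 and Gulp1.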
